A study of Mus musculus with 24 samples.

Results

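Csf2ra lies near the far end of mouse chromosome 19, and 10 genes of that stretch were followed here through 24 RNA-seq libraries of eosinophils grown from bone marrow. The genes are Shtn1, Slc18a2, Pdzd8, Rab11fip2, Fam204a, Cacul1, Eif3a, Prdx3, Grk5 and Zfp950. They were taken as listed genes within 3 Mb of Csf2ra on the GRCm38 build, to compare the 6 libraries labelled Csf2ra-/- with the other 18 at the targeted locus. The files held 28 genes in that window besides Csf2ra, out of 25746 genes in all. Of the 28 genes, 13 had enough counts to be tested and 15 did not. All 10 listed genes were among the 13, and the other 3 were Nanos1, Fam45a and Sfxn4. The list was chosen by levels measured in the Csf2ra-/- libraries against the other 18, so that comparison is a description of the 10 genes and carries no test.

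C57BL/6 bone marrow was grown until day 4 with 100 ng/ml of both FLT3 ligand and stem cell factor, and after that with 10 ng/ml IL-5. Dead cells were removed on day 13 and the rest stayed in IL-5 overnight. All 8 groups of 3 libraries shared this culture. Wild-type (WT) cells were left untreated, given GM-CSF at 20 ng/ml, given IL-10, or given both. The sources used here give no dose of IL-10. Both the cells labelled Csf2ra-/- and those labelled Irf5-/- had an untreated arm and an arm with GM-CSF at 20 ng/ml. Nor do the sources give the design of the Csf2ra allele, the strain in which it was made, or whether animals were pooled. The labels speak of triplicates without naming separate animals or cultures, and p-values therefore measure the spread between these libraries. That spread may be technical in part.

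Csf2ra encodes the chain of the GM-CSF receptor that binds the cytokine, and GM-CSF keeps eosinophils alive and activates them. Genes beside a targeted locus are of interest in knockout mice for a known reason. When an allele is made in one strain and crossed into another, a stretch of flanking chromosome travels with it, and genes in the stretch can differ through strain variants rather than through loss of the targeted gene. An altered locus can also change the use of regulatory DNA that neighbours share. The files hold counts per gene and no sequence variants, so the strain origin of the flanking chromosome was not tested. The neighbours have unrelated roles, from vesicle loading and membrane traffic to translation and peroxide removal.

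The promoters of 4 neighbours are shown because Zfp950, Rab11fip2 and Cacul1 stood lower in every Csf2ra-/- library while Prdx3, which lies between Cacul1 and Zfp950, did not. Each sequence is the 250 bases before the RefSeq start on GRCm38.p6, 5′ to 3′ on the minus strand, on which all 4 genes are read. The intervals are chr19:61140841-61141090 for Zfp950, chr19:59943655-59943904 for Rab11fip2, chr19:60581024-60581273 for Cacul1 and chr19:60874539-60874788 for Prdx3. Capitals mark the GC box GGGCGG and the CCAAT box CCAAT on either strand.
Zfp950: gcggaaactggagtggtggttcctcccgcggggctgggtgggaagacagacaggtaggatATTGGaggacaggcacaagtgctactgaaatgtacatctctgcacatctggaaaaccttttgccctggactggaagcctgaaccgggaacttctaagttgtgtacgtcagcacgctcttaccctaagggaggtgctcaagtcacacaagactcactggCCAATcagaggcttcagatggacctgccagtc
Rab11fip2: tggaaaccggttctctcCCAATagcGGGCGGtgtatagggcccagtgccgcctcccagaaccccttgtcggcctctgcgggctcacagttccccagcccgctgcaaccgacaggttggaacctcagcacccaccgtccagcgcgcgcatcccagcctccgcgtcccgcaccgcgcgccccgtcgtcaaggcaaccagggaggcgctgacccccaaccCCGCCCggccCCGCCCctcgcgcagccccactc
Cacul1: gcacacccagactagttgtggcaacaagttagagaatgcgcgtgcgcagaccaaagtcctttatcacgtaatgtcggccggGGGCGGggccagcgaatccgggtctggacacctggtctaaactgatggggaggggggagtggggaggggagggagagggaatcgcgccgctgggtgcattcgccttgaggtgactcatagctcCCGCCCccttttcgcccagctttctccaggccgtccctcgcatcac
Prdx3: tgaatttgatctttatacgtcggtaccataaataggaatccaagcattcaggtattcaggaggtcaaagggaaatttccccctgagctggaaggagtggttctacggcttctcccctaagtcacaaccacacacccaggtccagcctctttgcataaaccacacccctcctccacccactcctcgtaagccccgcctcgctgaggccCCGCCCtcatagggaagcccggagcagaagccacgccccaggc
The Zfp950 promoter held 2 CCAAT boxes and no GC box, and the Cacul1 promoter held 2 GC boxes and no CCAAT box. Rab11fip2 had 3 GC boxes and 1 CCAAT box, and Prdx3 had 1 GC box. Neither motif was thus common to the 3 genes that stood lower.

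The promoter table had an entry of 300 bases, 250 before and 50 after the start, for 8 of the 10 genes. Shtn1 and Fam204a had none, and Rab11fip2 had 2. A GC box stood in the promoters of 6 of the 8, against 35.7% of the 32851 promoters in the table, and a CCAAT box in 3 of the 8, against 37.4%. The ETS motif CCGGAA stood in 2 of the 8 (14.9% of all), the E-box CACGTG in 2 (7.15%) and TATAAA in 1 (13.6%). The STAT5 motif TTCNNNGAA, named for a factor that acts downstream of the GM-CSF and IL-5 receptors, matched in none of the 8 and in 8.3% of all promoters. No match says only that these letters are not in this window. GC content was above the table's median of 52.7% in all 8, from 54.0% at Zfp950 to 80.3% at Pdzd8.

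The targeted genes were read before the neighbours. Csf2ra stood at 29.9, 28.5 and 38.4 CPM (counts scaled to library size with edgeR's TMM factors) in untreated Csf2ra-/- libraries and at 38.1, 39.8 and 38.3 CPM with GM-CSF. In the other 18 libraries the lowest level was 41.8, the median 59.2 and the highest 83.8 CPM. The gene was thus lowered and not absent, with a log2 fold change of -0.81 ± 0.09 (SE; edgeR quasi-likelihood test with Benjamini-Hochberg adjustment, adjusted p = 7.75e-07). Counts per gene carry no exon positions, so a transcript that lacks the targeted part would still be counted. Irf5 went against its label. Its lowest level under the label Irf5-/- was 1390 CPM and its highest 2000 CPM, while the other 18 libraries held 28.3 to 94.3 CPM. Those 6 libraries are therefore called "labelled Irf5-/-" throughout, and values of Csf2ra and the neighbours against the 12 WT libraries alone are given further below.

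Library totals ran from 6222979 to 18709153 counts, and 11885 genes passed edgeR's filter on low counts. The summed level of 8 eosinophil markers was high everywhere, at 76700 to 108000 CPM in Csf2ra-/- libraries and 70200 to 89700 CPM in the others. Prg2 alone held 39100 to 65200 CPM in Csf2ra-/- libraries, while Il5ra stood at 58.0 to 118 CPM there and at 41.5 to 94.9 CPM in the others. Of the 8 markers, 3 were called higher in Csf2ra-/- libraries and 1 lower, Ccr3 (-0.49). The sum of 4 Y-linked genes was 148 to 185 CPM in all 6 Csf2ra-/- libraries and 12.1 to 182 CPM in the others, so the 6 were alike where the others were mixed. Every WT and labelled Irf5-/- group held replicates far apart in this sum, such as 178, 12.1 and 39.3 CPM in labelled Irf5-/- untreated. No label gives a culture or sequencing batch, and the culture origin of the 6 Csf2ra-/- libraries and their genotype cannot be told apart.

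**Figure D1:**
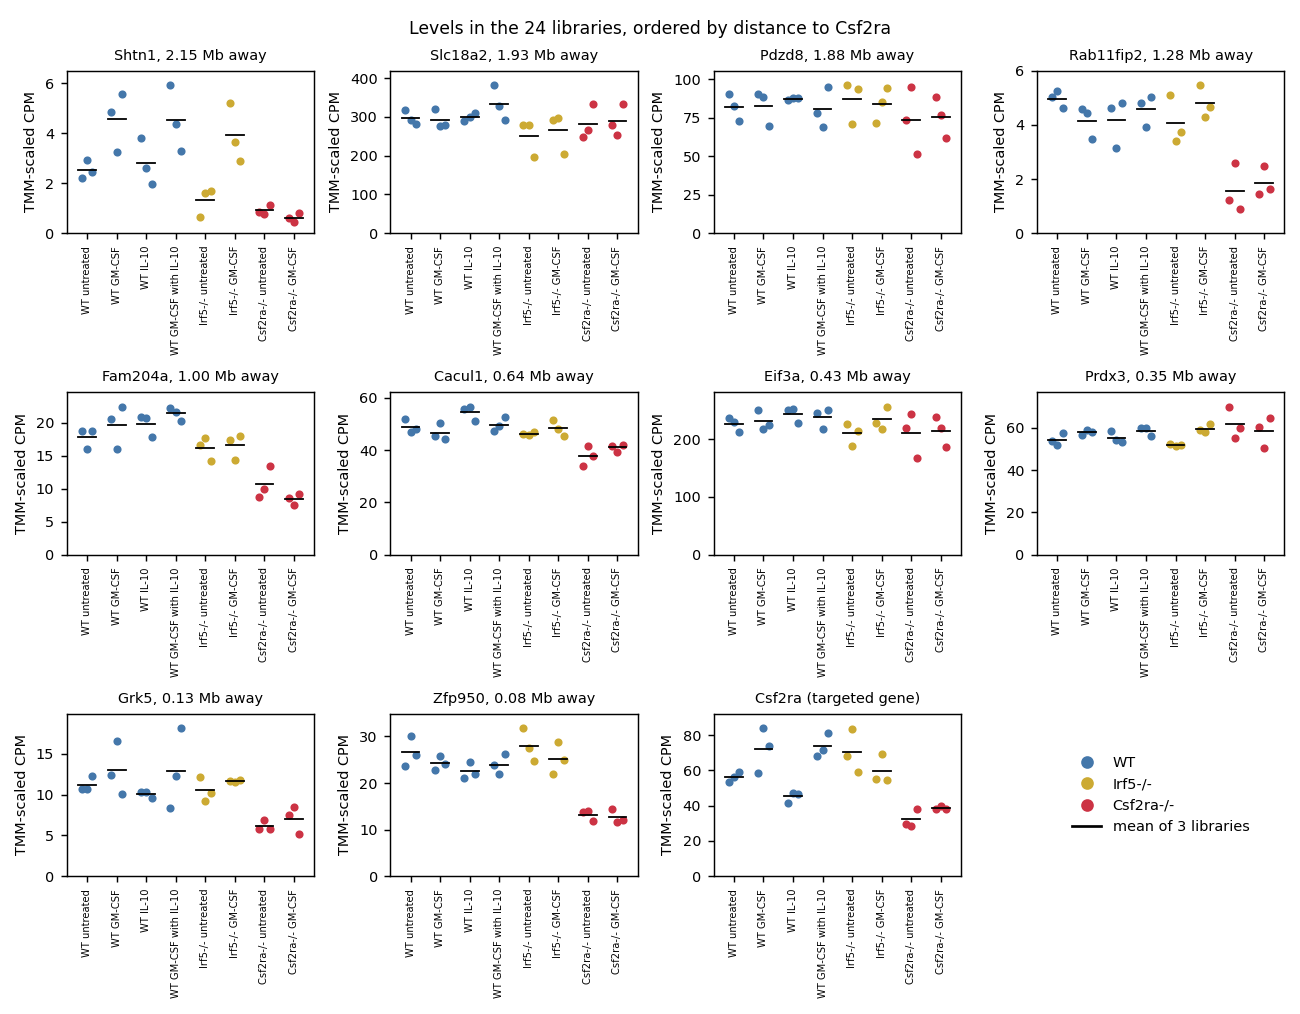
Levels of the 10 genes and Csf2ra (vertical axes, TMM-scaled CPM from 0) in 8 groups (horizontal axes), with 1 point per library, a line at the mean of 3 libraries, and panels ordered from the gene farthest from Csf2ra to the nearest. Rab11fip2, Fam204a, Cacul1 and Zfp950 have all 6 Csf2ra-/- points below the other 18, while Slc18a2, Pdzd8, Eif3a and Prdx3 overlap widely.

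Of the 10 neighbours, 6 were called lower in the Csf2ra-/- libraries and none higher, where 11.2% of all tested genes were called lower and 11.7% higher. The 6 were Shtn1, Rab11fip2, Fam204a, Cacul1, Grk5 and Zfp950. Their listing rested on this same comparison, so nothing is read from the count. The plot of levels by group shows that the 6 fall into 2 kinds. For 4 of them no Csf2ra-/- library reached any of the other 18, which held for 0.85% of all tested genes. For Shtn1 and Grk5, 1 of the 18 libraries lay within the Csf2ra-/- range.

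Zfp950, the nearest neighbour at 0.08 Mb, encodes a zinc-finger protein of a family of DNA-binding regulators. It is on the minus strand (chromosome 19, 61053840 to 61140840). It stood at 13.8, 14.0 and 11.8 CPM in untreated Csf2ra-/- libraries and at 14.4, 11.7 and 12 CPM with GM-CSF. The other 18 libraries ran from 21.1 through a median of 24.6 to 31.7 CPM. The groups were well apart and the Csf2ra-/- libraries were tightly placed, with a mean 48.6% below that of the others. The log2 fold change was -0.95 ± 0.08. Against each matched group taken by itself it was -1.01 (WT untreated), -0.92 (WT with GM-CSF), -1.08 (labelled Irf5-/- untreated) and -0.98 (labelled Irf5-/- with GM-CSF). These 4 values share the Csf2ra-/- libraries in pairs.

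Grk5 (60889749 to 61095968, plus strand, 0.13 Mb away) encodes a kinase that switches off activated G protein-coupled receptors. It stood at 5.80, 6.89 and 5.74 CPM in untreated Csf2ra-/- libraries and at 7.46, 8.5 and 5.17 CPM with GM-CSF. The other libraries ran from 8.36 through 11.1 to 18.1 CPM. Only WT GM-CSF with IL-10 replicate 1, at 8.36 CPM, lay within the Csf2ra-/- range. The log2 fold change was -0.80 ± 0.14. Grk5 and Zfp950 overlap by 42.1 kb on opposite strands, and the strand setting of the counting is not given in the sources used here. The overlap is of gene spans, and reads that the 2 genes could share were not measured, so both values are uncertain. Reads of Zfp950 may also be shared with other zinc-finger genes.

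Cacul1 (60524696 to 60581025, minus strand, 0.64 Mb away) encodes a cullin-domain protein that associates with CDK2. Its 6 Csf2ra-/- libraries stood at 33.8, 41.6 and 37.6 CPM untreated and at 41.6, 39.4 and 42.0 CPM with GM-CSF. The others ran from 44.1 through 48.0 to 56.5 CPM. The groups did not overlap although the shift was small, with a mean 19.8% lower and a log2 fold change of -0.32 ± 0.05. The lowest of the others was WT GM-CSF replicate 3. Against WT with GM-CSF the value was -0.18, the smallest of the 4 matched values, and against untreated WT it was -0.37.

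Fam204a (60198586 to 60226701, minus strand) lies 1.00 Mb away. It stood at 8.76, 9.90 and 13.4 CPM in untreated Csf2ra-/- libraries and at 8.59, 7.60 and 9.16 CPM with GM-CSF, against 14.2 to 22.4 CPM with a median of 18.3 in the others. The groups did not overlap, and the nearest libraries were Csf2ra-/- untreated replicate 3 and labelled Irf5-/- untreated replicate 3. The log2 fold change was -0.95 ± 0.09. It was -0.72 against untreated WT and -1.21 against WT with GM-CSF.

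Rab11fip2 (59902884 to 59943654, minus strand, 1.28 Mb away) encodes an adaptor of the small GTPase Rab11, which returns receptors from endosomes to the cell surface. It was a low-level gene, with 10 to 44 counts per Csf2ra-/- library. Those libraries stood at 1.23, 2.59 and 0.887 CPM untreated and at 1.46, 2.48 and 1.63 CPM with GM-CSF. The others ran from 3.14 through 4.63 to 5.46 CPM. No library crossed over, and the mean was 61.7% lower (log2 fold change -1.36 ± 0.18). With 1 library left out at a time the value ran from -1.69 to -1.19.

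Shtn1 (58973356 to 59076100, minus strand), the farthest neighbour at 2.15 Mb, encodes shootin-1, which couples actin flow to adhesion and is best known from axon growth. It had 6 to 19 counts in each Csf2ra-/- library. It stood at 0.863, 0.766 and 1.12 CPM untreated and at 0.594, 0.451 and 0.813 CPM with GM-CSF. The other 18 ran from 0.640 through 3.08 to 5.92 CPM. The lowest of them was the labelled Irf5-/- untreated replicate 1, with 4 counts in the shallowest library. The 12 WT libraries ran from 1.98 to 5.92 CPM. The log2 fold change was -2.0 ± 0.23, the farthest from 0 of the 13 tested genes in the window. The values by matched group were -1.44 against untreated WT and -2.86 against WT with GM-CSF, and -0.61 and -2.65 against the libraries labelled Irf5-/-.

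Slc18a2, Pdzd8, Eif3a and Prdx3 overlapped between the groups and were not called. Slc18a2 encodes the vesicular monoamine transporter that loads histamine and other amines into vesicles. It had 247 to 334 CPM in Csf2ra-/- libraries and 196 to 381 CPM in the others (log2 fold change -0.02 ± 0.09). Its 2 lowest libraries were both labelled Irf5-/-, at 196 and 205 CPM. Prdx3, a mitochondrial peroxidase, had 50.6 to 69.8 CPM against 51.4 to 61.7 CPM (0.09 ± 0.05) and was the one listed gene with a value above 0.

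Pdzd8, a protein of the endoplasmic reticulum that moves lipids at contact sites, stood at 73.6, 95.1 and 51.3 CPM in untreated Csf2ra-/- libraries and at 88.5, 76.8 and 61.6 CPM with GM-CSF. The others ran from 69.0 through 87.1 to 96.0 CPM. Eif3a, the largest subunit of the initiation factor eIF3, stood at 219, 244 and 167 CPM untreated and at 239, 220 and 186 CPM with GM-CSF, against 189 to 256 CPM in the others. For both genes the same 2 Csf2ra-/- libraries, replicate 3 of each treatment, lay below all 18 others, and the rest lay among them. Their log2 fold changes were -0.17 ± 0.11 and -0.12 ± 0.07.

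Among the 10 listed genes, level per transcript length set the 2 sets apart in another way. Per kb of exon the mean over the 18 other libraries was 55.5 CPM for Slc18a2, 38.0 for Prdx3, 26.4 for Eif3a and 14.0 for Pdzd8. The 6 genes called lower followed, at 7.24 for Cacul1, 3.23 for Fam204a, 2.36 for Zfp950, 1.64 for Grk5, 0.735 for Rab11fip2 and 0.531 for Shtn1. Of the 10, the 4 genes with the highest level per length were thus the 4 that overlapped. The other tested genes of the window did not keep to this split. Nanos1, at 0.614, and Sfxn4, at 0.437, overlapped and were not called, while Fam45a, at 3.98, was called lower. Among all tested genes with a mean under 20 CPM, 13.2% were called lower, against 9.64% of those at 20 CPM or more. Of the genes with over 5 kb of exon, 14.9% were called lower, against 8.59% of shorter ones. All listed genes but Prdx3 had over 5 kb of exon.

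The other 3 tested genes of the window were not listed. Fam45a, 0.39 Mb away, stood at 15.6 to 21.9 CPM in Csf2ra-/- libraries and at 21.9 to 28.0 CPM in the others, a narrow gap with no overlap. It was called lower (log2 fold change -0.39 ± 0.08, edgeR adjusted p = 0.000964). Nanos1, an RNA-binding repressor, and Sfxn4, a mitochondrial membrane protein, were at 1.18 to 3.25 CPM and 0.648 to 2.07 CPM over all libraries. They were not called (-0.19 ± 0.18, edgeR adjusted p = 0.474, and -0.25 ± 0.21, adjusted p = 0.407).

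**Figure D2:**
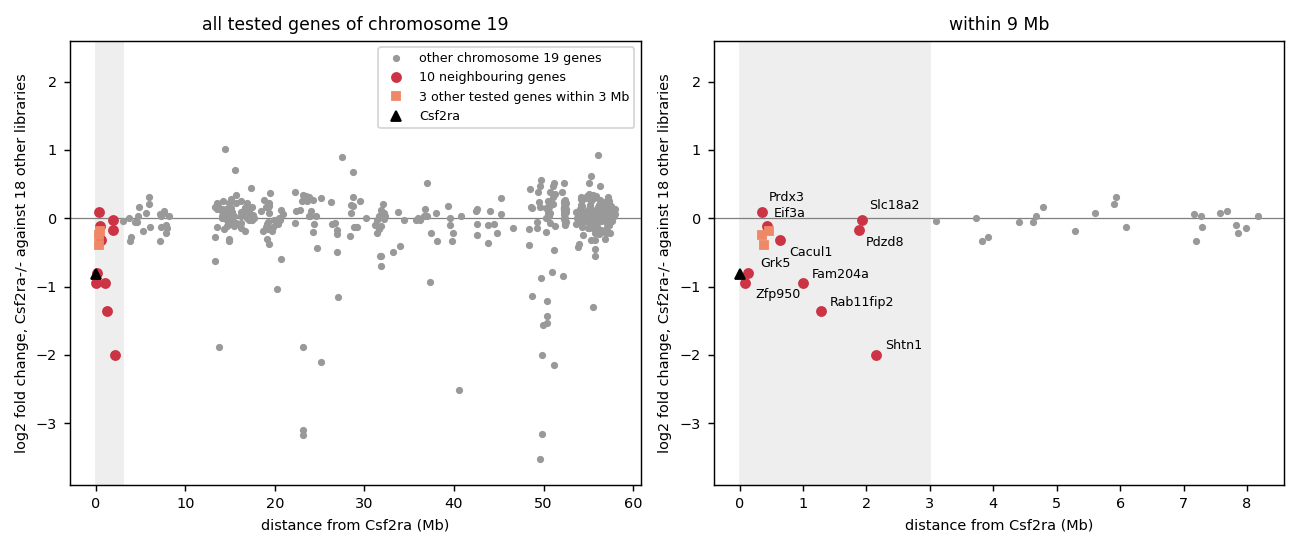
Log2 fold change in Csf2ra-/- libraries against the other 18 (vertical axes) by distance from Csf2ra in Mb (horizontal axes) for all tested genes of chromosome 19 (left) and for those within 9 Mb (right), with the 3 Mb window shaded. Inside the window 12 of 13 genes lie below 0, and from 3 to 6 Mb 6 of 12 do. Of the 13, 10 were listed on this same comparison.

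Within the window, distance did not order the values, as the plot of fold change against distance shows. The lowest values were at Shtn1, the farthest gene, and at Rab11fip2, while Prdx3, Eif3a and Sfxn4, all within 0.43 Mb, were not called. In all, 12 of 13 values were below 0, against 47.2% of all tested genes, with a median of -0.32 against 0.02. Of the 13 genes, 10 were listed on this same comparison and 9 of these lay below 0, so nothing is read from the counts. The 3 unlisted genes all lay below 0, and 1 was called lower. The gene just inside the limit was Shtn1 at 2.15 Mb. Just outside was Atrnl1 at 3.09 Mb with -0.04, followed by Trub1 at 3.73 Mb with 0.00.

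**Figure D3:**
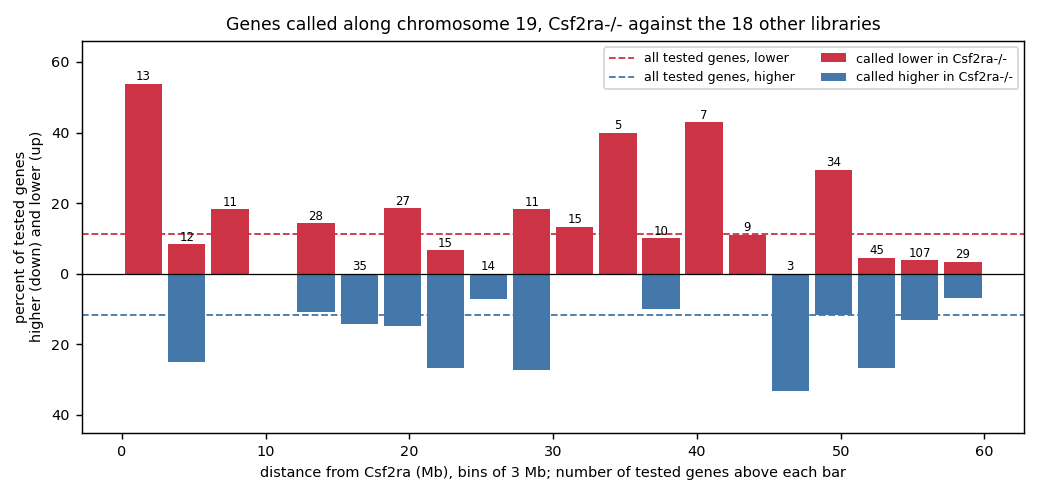
Percent of tested genes called lower (bars upward) and higher (bars downward) in Csf2ra-/- libraries, in bins of 3 Mb from Csf2ra along chromosome 19, with the number of tested genes at each bar and dashed lines for all tested genes of the genome. The nearest bin stands at 53.8% lower and 0 higher, and the next at 8.33% lower. Of the 13 genes in the nearest bin, 10 were listed on this same comparison.

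From 3 to 6 Mb, 1 of 12 tested genes was called lower and 3 higher, with a median of -0.02. The one lower was Fam160b1 (-0.33 ± 0.09, edgeR adjusted p = 0.00887), and the higher ones included Zdhhc6 (0.21) and Acsl5 (0.31). Over the rest of chromosome 19, 41 of 417 genes were called lower (9.83%) and 57 higher, and the median was 0.04. The plot of calls in bins along the chromosome shows other bins with many lower genes. The bin from 48 to 51 Mb had 10 of 34 called lower (29.4%), and that from 39 to 42 Mb had 3 of 7. Mpeg1, a pore-forming protein of phagocytes at 48.76 Mb, was called lower with no overlap and a mean of at least 5 CPM (-1.14 ± 0.13, edgeR adjusted p = 1.79e-06). Genes of that bin with lower values did not meet this rule for named genes. Only 1 side of Csf2ra could be read, since no tested gene lay beyond it. With the limit at 1, 5 or 10 Mb, 5 of 9, 8 of 21 and 10 of 36 genes were called lower. These counts include genes listed on this comparison and are a description.

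Chromosome 19 as a whole was near the genome's level, with 11.4% of 431 tested genes called lower. Chromosome 6 had 17.2% and chromosome 1 had 14.1%. Of the 100 genes with the smallest p in this comparison, 8 were on chromosome 19, 10 on chromosome 1 and 14 on chromosome 6. By rank of p over 11885 genes Zfp950 was 17th, Fam204a 34th, Shtn1 70th, Rab11fip2 117th, Cacul1 306th and Grk5 353rd. Prdx3 was 5008th, Eif3a 5341st, Pdzd8 5533rd and Slc18a2 11065th, and Csf2ra itself was 51st. For the listed genes these ranks are a description, since the genes were chosen on this comparison. The 10 smallest p-values included 3 genes of chromosome 1, Wdfy1 (start 79702262), B3gnt7 (start 86302832) and Glrp1 (start 88499871). Irf5 on chromosome 6, high in the libraries labelled Irf5-/-, was also among the 10 (-2.44 ± 0.11). None of the 10 lay on chromosome 19. Glrp1 had no counts in the 6 Csf2ra-/- libraries and a mean of 2.25 CPM in the others.

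The window around Irf5 was read in the same way with the libraries labelled Irf5-/-. Of 25 tested genes within 3 Mb of Irf5 on chromosome 6, 3 were called in these 6 libraries against the other 18, where 0.631% of all tested genes were. Smo, the Hedgehog signal transducer, was higher (1.62 ± 0.32, edgeR adjusted p = 0.0146). It was a low-level gene, at 0.726 to 1.53 CPM, and the other 18 libraries overlapped it at 0.0 to 1.83 CPM. Rbm28 (-0.25 ± 0.06, edgeR adjusted p = 0.0299) and Ahcyl2 (-0.34 ± 0.07, adjusted p = 0.0228) were lower. The median of the 25 was -0.04, and no test compared this window with that of Csf2ra. The other 18 libraries here included the 6 Csf2ra-/- ones, and values of the 3 called genes against WT alone are not given. These calls were fragile, since 0 were called without labelled Irf5-/- untreated replicate 2 or GM-CSF replicate 2, and 1 without untreated replicate 1, untreated replicate 3 or GM-CSF replicate 3.

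The 6 lower genes ran together over all libraries but not over those without Csf2ra-/-. Over all 24 libraries the Pearson r of log2 CPM in their 15 pairs ran from 0.58 to 0.84 with a median of 0.71. Over the 18 libraries without Csf2ra-/- it ran from -0.55 to 0.49 with a median of 0.06. The highest r was 0.84 for Rab11fip2 with Zfp950 and for Shtn1 with Fam204a, and without the Csf2ra-/- libraries these were 0.06 and 0.49. These values describe points that share the genotype contrast, library depth and treatments. The 6 genes were picked as lower in the Csf2ra-/- libraries, so a high r over all 24 follows from that choice. Its loss over the 18 is therefore not a separate result.

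For the genes elsewhere whose levels ran most like each neighbour, r over the 18 libraries held for some and fell for others. Zfp950 ran closest to Glrp1 on chromosome 1 (r = 0.92 over 24 libraries, -0.19 over the 18) and Rab11fip2 to Pgr on chromosome 9 (0.91 and 0.02). These 2 likenesses were thus carried by the Csf2ra-/- libraries. The next genes for Zfp950, D2hgdh (0.91 and 0.58) and Gpr55 (0.88 and 0.61), kept more of theirs. Shtn1 ran with Bcar3 (0.95 and 0.90), and its next were the chemokine gene Ccl2 and the antigen-loading gene H2-DMa, both at 0.95. Pdzd8 ran with Mob1a (0.95 and 0.92) and Eif3a with Kpnb1 (0.90 and 0.86), likenesses present in both. Grk5 ran with Fgl2 (0.90 and 0.77), Cacul1 with Itsn1 (0.90 and 0.70), Prdx3 with Cib2 (0.80 and 0.70) and Slc18a2 with Gm43759 (0.79 and 0.82). Fam204a ran with Clec4d (0.92 and 0.35), and its next was Prdm1 (0.92 and 0.87).

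**Figure D4:**
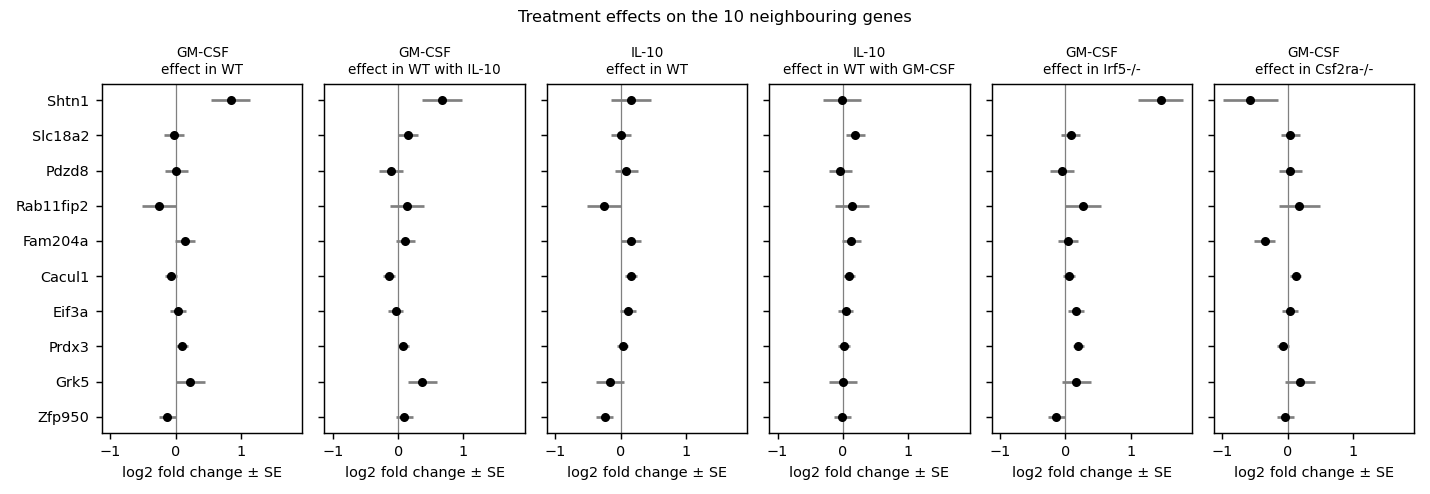
Log2 fold change ± SE (horizontal axes) of the 10 genes (vertical axis) for 6 treatment effects, 3 libraries against 3 in each panel. Shtn1 is the 1 gene far from 0, at 0.84, 0.67 and 1.46 with GM-CSF in WT, in WT with IL-10 and in cells labelled Irf5-/-, and at -0.57 in Csf2ra-/-.

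Treatment was not used to list the genes and could be tested. No neighbour was called for any treatment effect, as the plot of treatment effects shows beside the errors. GM-CSF in WT called 0 of 10, where 0.555% of all genes were called by edgeR, with 1 of 10 and 745 of 11885 at an unadjusted p under 0.05. GM-CSF in WT with IL-10 called 0 (0.858% of all, with 1 of 10 and 1144 of 11885 unadjusted). IL-10 alone and IL-10 with GM-CSF called 0 each (0.0505% of all in both), with 0 of 10 unadjusted in both and 539 and 382 of 11885. GM-CSF in Csf2ra-/- called 0 of 10 and 0.0% of all, with 1 of 10 and 531 of 11885 unadjusted. GM-CSF in cells labelled Irf5-/- called 0 (0.353% of all, with 2 of 10 and 692 of 11885 unadjusted). DESeq2, limma-voom and edgeR with upper-quartile factors also called none of the 10 in these 6 effects, except DESeq2 for 1 gene in the cells labelled Irf5-/-.

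That gene was Shtn1. In cells labelled Irf5-/- it stood at 0.640, 1.60 and 1.70 CPM untreated and at 5.22, 3.65 and 2.91 CPM with GM-CSF. The log2 fold change was 1.46 ± 0.34 (edgeR quasi-likelihood test with Benjamini-Hochberg adjustment, adjusted p = 0.0643). DESeq2 gave 1.47 with an adjusted p of 0.0163 and limma-voom 1.44 with an adjusted p of 0.274. The edgeR value was 0.043 without GM-CSF replicate 3 and 0.0491 without WT GM-CSF with IL-10 replicate 3, and 0.519 without GM-CSF replicate 1. In WT, Shtn1 stood at 2.22, 2.93 and 2.47 CPM untreated and at 4.86, 3.24 and 5.57 CPM with GM-CSF (0.84 ± 0.30, edgeR adjusted p = 0.475). With IL-10 present it stood at 3.81, 2.61 and 1.98 CPM without GM-CSF and at 5.92, 4.36 and 3.30 CPM with it (0.67 ± 0.30, edgeR adjusted p = 0.469).

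In the Csf2ra-/- libraries, Shtn1 had the opposite sign with GM-CSF (-0.57 ± 0.42, edgeR adjusted p = 0.999). The difference of the GM-CSF effects between Csf2ra-/- and WT was -1.42 ± 0.52 (edgeR adjusted p = 0.834), and so was not past the threshold. That difference called 0 of the 10, where 0.0589% of all genes were called, with 2 of 10 and 692 of 11885 at an unadjusted p under 0.05. The second of the 2 was Fam204a, at -0.49 ± 0.22 (edgeR adjusted p = 0.843). For the remaining 8 the difference lay between -0.16 at Prdx3 and 0.43 at Rab11fip2. For Zfp950 it was 0.09 ± 0.18. Csf2ra itself was called with GM-CSF in WT cells given IL-10 (0.71 ± 0.14, edgeR adjusted p = 0.0108).

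Libraries labelled Irf5-/- against WT, untreated and with GM-CSF together, also called 0 of the 10 (0.0926% of all genes), with 1 of 10 and 1169 of 11885 at an unadjusted p under 0.05. That gene was Shtn1 (-0.52 ± 0.23, edgeR adjusted p = 0.496). The other 9 lay between -0.19, at Slc18a2 and Fam204a, and 0.06 at Zfp950. Against the 12 WT libraries alone, a comparison chosen after seeing the data, the Csf2ra-/- values were -2.19 for Shtn1, -1.37 for Rab11fip2, -1.04 for Fam204a, -0.91 for Zfp950, -0.84 for Grk5 and -0.34 for Cacul1. All 6 were called lower, where 14.3% of all genes were. The remaining neighbours stood at -0.10 for Slc18a2, -0.16 for Pdzd8, -0.15 for Eif3a and 0.09 for Prdx3. Csf2ra stood at -0.78 and Fam45a at -0.40. These 12 WT libraries and the same Csf2ra-/- libraries were part of the comparison on which the genes were listed. The count is therefore a description and no separate test.

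Markers of other cell types differed between the same libraries. Of 9 neutrophil markers 8 were called lower in Csf2ra-/- libraries, where 11.2% of all tested genes were called lower and 11.7% higher. Their sum was 1120 to 1460 CPM against 1510 to 2090 CPM. Of 9 monocyte and macrophage markers 7 were called lower and 1 higher, with a sum of 1970 to 2640 CPM against 2160 to 2560 CPM, and C1qa was at 0 to 0.123 CPM against 0 to 2.14 CPM. Of 8 tested mast cell and basophil markers 2 were called higher, with a sum of 665 to 912 CPM against 498 to 774 CPM, and the mast cell proteases Mcpt4 and Tpsab1 were at 0 in all libraries. The B cell list was near 0 in both (2.22 to 3.61 and 2.08 to 3.27 CPM). The sums for T and NK cells (116 to 141 against 70.9 to 109 CPM) and megakaryocytes (1340 to 1570 against 1040 to 1330 CPM) were higher in Csf2ra-/- and lay almost wholly in Nkg7 and Itga2b, while Ncr1 was at 0. The other 2 megakaryocyte markers were called lower, Pf4 at -2.03 and Ppbp at -1.44. In bulk RNA, fewer cells of a type and less RNA per cell cannot be told apart. The part of these markers in the lower levels of the 6 neighbours was not tested.

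Partners of the neighbours by function were read from lists of named families. In the eIF3 complex, 3 of the 11 other subunits were called higher in Csf2ra-/- libraries and none lower, at 0.20 for Eif3d, 0.27 for Eif3i and 0.20 for Eif3l, where 23.0% of all genes were called. Beside Prdx3, 1 of 5 peroxiredoxins was called lower, Prdx4 of the endoplasmic reticulum (-1.06 ± 0.22, edgeR adjusted p = 0.0013). Beside Slc18a2, 2 of 4 tested genes of monoamine handling were called higher, the amine oxidase Maob (1.14 ± 0.14, edgeR adjusted p = 4.39e-06) and the histamine-forming enzyme Hdc (0.30 ± 0.10, adjusted p = 0.0398).

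Among the listed relatives of Grk5, Rab11fip2 and Cacul1, none was called lower, where 11.2% of all tested genes were. With so few genes, nothing is read from this. Beside Grk5, the 4 other tested receptor kinases were not called, and the most abundant, Grk2, was at 0.10 ± 0.05. Beside Rab11fip2, none of the 6 other genes of the Rab11 list was called, with Rab11fip1 at -0.19 ± 0.11 and Rab11a at 0.00 ± 0.06. Among the partners of Cacul1, Cdk2 was called higher (0.33 ± 0.06, edgeR adjusted p = 0.000427) and 4 others were not. The 4 genes listed beside Prdx3 in the mitochondrial thioredoxin system and the 5 lipid transfer genes listed beside Pdzd8 were not called. No gene of these families was called for GM-CSF in WT, where 0.555% of all genes were.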

How the data were processed

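The deposited tables hold whole-number read counts by Ensembl gene, 1 table a library. The submitters' processing notes name STAR, featureCounts and GRCm38.p6, without versions. The strand setting of the counting is not given in the sources used here, although libraries were made with a stranded mRNA kit, per the labels' protocols. GENCODE symbols and coordinates matched 25635 of 25746 genes, and the 111 without a symbol held 0.0385% of counts.

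Counts were scaled by TMM (factors 0.939 to 1.031) and filtered with filterByExpr in edgeR 4.0.16 on R 4.3.3. The robust quasi-likelihood fit had 8 group means over 24 libraries (biological coefficient of variation 14.1%). Calls required a Benjamini-Hochberg adjusted p under 0.05 over 11885 genes. On data simulated for Csf2ra-/- against the other libraries, 191 of 200 changed genes were called. Changed genes with low counts and treatment effects were not simulated, so this share does not extend to them. DESeq2 1.42.0, limma 3.58.1 (voom), other filters and scalings, a Y-linked covariate and leaving out libraries were the alternatives. Replicate numbers follow the order of deposit.

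The neighbours and all gene lists were chosen with earlier results of these data known. Named genes were the neighbours, the other tested genes within 3 Mb, called genes of chromosome 19 with no overlap and at least 5 CPM, the 10 smallest p-values, and the gene most like each neighbour. Genes from 3 to 6 Mb, the next most alike genes, marker genes and family members were named after their values were seen.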

Additional observations from a re-analysis of the deposited data

Results flagged for a closer look

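Nanos1 stood at 1.28 CPM in the labelled Irf5-/- untreated replicate 1, far below the other 5 libraries with that label. It rested on 8 counts in the shallowest library. Of 28 sets of 6 libraries looked at, this was the 1 set with such a gap, and chance gives about 5% of sets.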

How the results depend on the processing

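No paired analysis was run because the labels give no replicate number that groups share. Y-linked levels of labelled Irf5-/- replicates were near each other between treatments (178 against 163, 12.1 against 13.2 and 39.3 against 44 CPM). In WT they were near each other for replicate 1 (173 against 178 CPM) and replicate 3 (52.7 against 52.5 CPM). For WT replicate 2 they were not, with 58.2 CPM when untreated against 176 CPM under GM-CSF. The numbers only follow the order of deposit, so neither nearness nor a gap at 1 number settles a pairing. Whether untreated and GM-CSF libraries came from the same cultures was not tested. If they did, the fits treat linked libraries as independent, and the SEs and p-values carry that limit. The count of all genes called in Csf2ra-/- libraries, 2729, was 1711 after adding the Y-linked level to the model and 1738 against treatment-matched libraries, and ran from 2011 to 3737 with 1 library left out. The count of 7 genes called within 3 Mb of Csf2ra was 13 at 10 Mb and ran from 7 to 8 with 1 library left out. Of the 7 genes, 6 had been listed on this comparison. For GM-CSF in cells labelled Irf5-/-, the count of neighbours called was 0, was 1 with DESeq2 and ran from 0 to 1 with 1 library left out. The count near Irf5, 3, ran from 0 to 3. For the other 7 comparisons of treatment and of labelled Irf5-/- against WT, the count of called neighbours was 0 under every alternative run. None of the 460 log2 fold changes of single genes under the alternatives moved by 1 SD, the spread of single libraries within groups in log2 CPM. That limit is wide, at 0.42 for Shtn1 where the SE of the fold change was 0.23. Within its limit, Pdzd8 ran from -0.29 to -0.06 with 1 library left out. Slc18a2, at -0.02 and not called, changed sign, with 0.05 against treatment-matched libraries and -0.08 to 0.03 with 1 library left out. Shtn1 and Rab11fip2 are limited by depth, at 4 to 85 and 10 to 96 counts per library.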
